A study of Homo sapiens with 3 samples.

Results

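Immediate early transcription factors are the genes that growth factors, serum and stress switch on first, before any new protein is made. The 10 genes described here are 4 members of the FOS family (FOS, FOSB, FOSL1 and FOSL2), 3 of the JUN family (JUN, JUNB and JUND), and EGR1, IER2 and ATF3. They were chosen by name as growth factor responsive genes and found by joining the transcript identifiers of the deposited tables to gene symbols. All 10 were found among 61193 genes. The cells were HEK293T, which derive from human embryonic kidney and express the large T antigen of SV40, and RNA-seq was made from 3 biological replicates of 1 condition. They were grown in medium with 10% serum and collected 24 h after seeding without any added agent, so no groups were compared and no stimulation was measured. The libraries were made from total RNA with a 3′ end kit, in which each read comes from near the poly(A) tail. Labels of the samples call the material genomic DNA, but the methods of the study describe total RNA, which is the reading taken here.

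FOS and JUN proteins join through a leucine zipper to form AP-1, a transcription factor that binds DNA as a dimer. FOS proteins need a JUN partner, while JUN proteins can also pair among themselves. EGR1 is a zinc finger factor, ATF3 is a stress-induced relative of the AP-1 proteins, and IER2 is a nuclear protein induced with them. Many mRNAs of this class are short-lived, and the kinase cascade from growth factor receptors to the factors ELK and SRF raises the transcription of several of them through a promoter element called the CArG box.

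The libraries held 6262175 to 8521624 counts, and genes of the mitochondrial genome took 9.59%, 5.7% and 25.8% of the counts of replicates 1, 2 and 3. Outside them the totals were close, with 6345891, 5905072 and 6319974 counts. A count of 0 allows up to 3 counts, or 0.352 to 0.479 counts per 1000000 (CPM). Of 6 marker genes of the line, 4 were expressed, among them LIN28B with 40.8 TPM (transcripts per 1000000, a level per transcript length) and CDH2 with 25.4 TPM, while VIM had 0.656 TPM and KRT18 had 0 counts, both genes whose 3′ ends are shared by several listed transcripts. Markers of blood were at 0 in every library (4 of 4), but 3 of them have such shared ends. Of 3 endothelial markers 0 were expressed. Of 4 fibroblast markers only the collagen gene COL1A1, with 24.8 TPM, was expressed.

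A gene was taken as expressed at a mean of at least 1 TPM. By this threshold 5 of the 10 genes were expressed (JUN, JUND, JUNB, EGR1 and FOS), compared with 21.7% of all genes and 38.2% of protein-coding genes. The high category of the study is the upper quartile of expressed genes, at or above 24.1 TPM, and 4 of the 10 genes lay in it, compared with 12.5% of protein-coding genes. The other 5 genes were under the threshold, and FOSB, FOSL1 and IER2 had 0 counts in all 3 replicates. The summed level of all 10 genes was 915, 1030 and 684 TPM, and 81.4%, 83.3% and 74.8% of their counts were of JUN. Reads of the 5 genes under the threshold may have been left unassigned, as described below, which limits these sums and shares. In bulk RNA, a level in every cell cannot be told apart from a higher level in fewer cells.

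**Figure D1:**
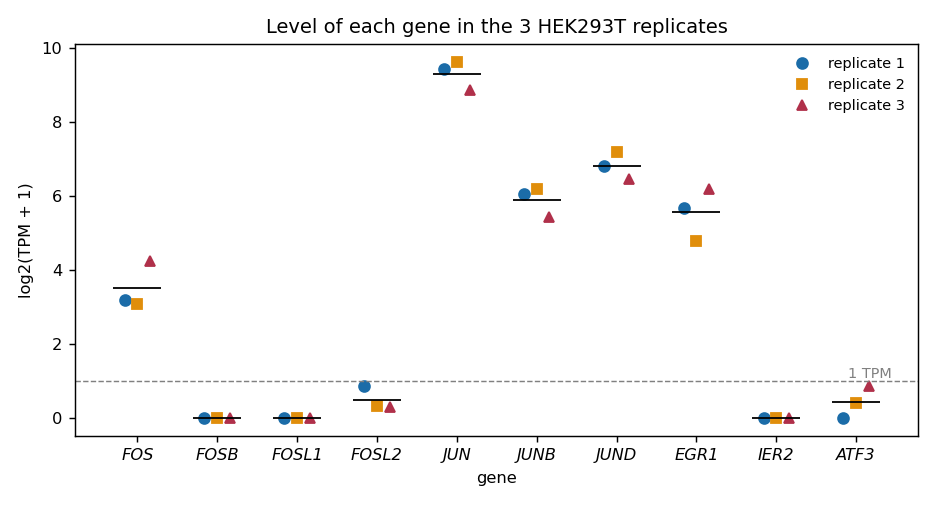
Level of the 10 genes in the 3 HEK293T replicates, as log2(TPM + 1) on the vertical axis, with 1 point per replicate, black lines at the mean of the 3 log2 values and a dashed line at 1 TPM. JUN lies highest in every replicate, JUND, JUNB, EGR1 and FOS lie between it and the dashed line, and the other 5 genes lie under the line.

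Most counts of the 10 genes were of the JUN family. JUN (ENSG00000177606), on the minus strand of chromosome 1 of GRCh38 (hg38), had 10064, 9785 and 10098 counts in replicates 1, 2 and 3. Per length this was 681, 784 and 465 TPM, with a mean of 643 ± 163 TPM (SD, n = 3), which placed it above 98.6% of the expressed genes. JUN-201, its only listed transcript, is a single exon at chr1:58780791-58784047, so its reads were not shared among listed transcripts.

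JUND (ENSG00000130522, chr19:18279694-18281622, minus strand) encodes the JUN protein that is least dependent on stimulation. It had 959, 1073 and 1116 counts, which gave 110, 145 and 86.7 TPM and a mean of 114 ± 29.4 TPM (SD, n = 3). JUNB (ENSG00000171223, chr19:12791486-12793315, plus strand), which can restrain the activity of JUN, had 541, 500 and 516 counts. Its levels were 65.1, 71.3 and 42.3 TPM, with a mean of 59.6 ± 15.3 TPM (SD, n = 3). Both were high in all 3 replicates. The TPM of JUN, JUNB and JUND was lowest in replicate 3, in which mitochondrial genes took 44.2% of the TPM sum, compared with 22.8% and 15.4% in replicates 1 and 2. The canonical transcripts of JUN, JUNB and JUND have 1 exon each. Part of the JUNB exon lies opposite an antisense transcript of HOOK2, but its last 300 bases do not.

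Within the family the share of JUN hardly moved. JUN was above JUND in 3 of 3 replicates, by 5.36 to 6.22 times per length, and JUND was above JUNB in 3 of 3, by 1.68 to 2.05 times. JUN made up 79.6%, 78.4% and 78.3% of the summed TPM of the JUN family. These proportions depend on the division by length, and JUN has the longest transcript of the family. Without it the means were 1390 CPM for JUN, 146 for JUND and 72.5 for JUNB, so JUN stood further above both. The family sum was 856, 1000 and 594 TPM, against 8.99, 7.64 and 18.2 TPM for the FOS family. The latter is almost FOS alone. Reads of FOSB, FOSL1 and FOSL2 may have been left unassigned at shared ends, described below, which limits the comparison of the families.

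Upstream of its TSS, JUN holds C-rich runs of the kind that can fold into iMs, the 4-stranded structures of cytosine that the study set out to map. These were searched in the 500 bases upstream of the canonical TSS as 4 tracts of at least 3 Cs with loops of 0 to 7 bases on the strand of the gene. The nearer of the 2 JUN runs is shown because the study asked how such sequences go with expression, with the matching run in capitals. It lies at chr1:58784464-58784500 within chr1:58784439-58784525, minus strand of hg38.
JUN: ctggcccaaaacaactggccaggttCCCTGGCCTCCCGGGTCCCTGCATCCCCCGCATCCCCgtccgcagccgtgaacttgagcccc

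The JUND window has the highest GC content of the 10 genes, 77.2%, above 97.2% of 20031 such windows. The lowest of the 10, that of JUNB, has 62.6%, still above 64.4% of windows. The shares of all windows given below are not matched for GC content. Such C runs occurred upstream of 5 of the 10 genes (FOS, FOSL2, JUN, JUND and ATF3), compared with 25.7% of all windows, and the same pattern in G occurred upstream of 6, compared with 25.2%. Of the 5 genes with a C run 3 were expressed, and of the 5 without, 2 were. The 5 genes not expressed all have shared ends, described below, so this split cannot relate C runs to expression. Of those without a C run, FOSB, FOSL1 and EGR1 hold a G run, which is a C run on the other strand. The motif GGGCGG, which binds factors of the SP family, was found on either strand upstream of 8 of the 10 genes, all but JUNB and EGR1. It occurred in 65.1% of all windows. Some of the matches overlap the C or G runs, as in JUND, while those upstream of FOS and JUN do not. Binding or folding at these runs was not analysed here.

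EGR1 (ENSG00000120738, chr5:138465479-138469303, plus strand), a zinc finger factor that binds GC-rich promoters, had 716, 320 and 1495 counts. Per length the levels were 50.3, 26.6 and 71.5 TPM, with a mean of 49.5 ± 22.4 TPM (SD, n = 3). By the quartiles of each replicate alone, it was in the high category in replicates 1 and 3 and in the medium category in replicate 2. EGR1 could not be ordered against JUNB: JUNB was higher in 2 of 3 replicates and the ranges of TPM overlapped. Without division by length, EGR1 had a mean of 110 CPM and stood above JUNB with 72.5. Its only listed transcript, EGR1-201, has 2 exons.

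The EGR1 promoter carries more CArG boxes than any other of the 10. A CArG box, the site of SRF, was searched as CC, 6 bases that are each A or T, and GG, a pattern that reads the same on both strands. EGR1 holds 5 of them in its 500 upstream bases. Such a box was present upstream of 3 of the 10 genes (FOS, FOSB and EGR1), compared with 2.38% of all windows. The stretches around them are printed with the boxes in capitals, since they show what these 3 genes share. They lie at chr5:138465036-138465149 and chr5:138465349-138465430 for EGR1, chr14:75278489-75278548 for FOS and chr19:45467697-45467756 for FOSB, all on the plus strand of hg38.
EGR1, bases 443 to 330 upstream: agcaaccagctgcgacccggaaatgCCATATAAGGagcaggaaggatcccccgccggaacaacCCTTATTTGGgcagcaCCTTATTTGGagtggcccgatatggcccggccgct
EGR1, bases 130 to 49 upstream: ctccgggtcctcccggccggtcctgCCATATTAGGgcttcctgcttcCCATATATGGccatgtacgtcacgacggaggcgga
FOS, bases 339 to 280 upstream: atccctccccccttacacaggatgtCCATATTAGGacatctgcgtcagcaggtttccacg
FOSB, bases 299 to 240 upstream: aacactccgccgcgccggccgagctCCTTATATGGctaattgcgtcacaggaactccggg

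The box of FOS, CCATATTAGG, also occurs in the proximal stretch of EGR1. The cAMP response element TGACGTCA was found upstream of FOSB and JUND, against 2.9% of all windows. The AP-1 site TGACTCA or its complement TGAGTCA was found in none of the 10 windows, against 6.07% of all, which says only that these letters are not in the windows searched.

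FOS was the only member of its family that reached the threshold of 1 TPM, and the shared ends of the others, described below, limit this comparison. FOS (ENSG00000170345, chr14:75278826-75282230, plus strand) had 78, 59 and 249 counts, which gave 8.17, 7.39 and 17.9 TPM and a mean of 11.2 ± 5.87 TPM (SD, n = 3). It was in the medium category in every replicate and lay above 61.3% of the expressed genes. EGR1 was above FOS in 3 of 3 replicates, by 3.6 to 6.16 times per length. The summed TPM of the JUN family was 105, 135 and 33.1 times that of FOS, so the excess of JUN was lowest in replicate 3.

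FOSL2 (ENSG00000075426, chr2:28392448-28417317, plus strand), which encodes FRA2, had 8, 6 and 9 counts. They lay on 3 of its 4 listed transcripts and gave 0.82, 0.245 and 0.232 TPM. The mean was 0.432 ± 0.336 TPM (SD, n = 3), and FOS was higher in 3 of 3 replicates. FOSL1 (ENSG00000175592, chr11:65892049-65900573, minus strand), which encodes FRA1, and FOSB (ENSG00000125740, chr19:45467995-45475179, plus strand), known for its lasting isoform in neurons, had 0, 0 and 0 counts. IER2 (ENSG00000160888, chr19:13150411-13154911, plus strand) likewise had 0 counts in every replicate.

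ATF3 (ENSG00000162772, chr1:212565334-212620777, plus strand) had 0, 2 and 9 counts and a mean of 0.377 ± 0.407 TPM (SD, n = 3). ATF3-208, a retained intron transcript, held 0, 2 and 8 of these counts, and ATF3-209 held the single other count. Its canonical transcript ATF3-202 had no count. FOSL2 and ATF3 did not differ beyond their spread.

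The genes at or near 0 share a feature of the table. The transcripts of a gene overlap, and an exonic base that belongs to a single listed transcript on its strand is here called an exclusive base. The 10 genes have 49 listed transcripts. Of these, 27 have no exclusive base, and 0 of the 27 held a count. Of the 22 with an exclusive base, 11 held all counts, and the fewest exclusive bases of a transcript with a count were 86, in FOSL2-202. The most in a transcript without a count were 969, in IER2-203, or 307 when transcripts of the opposite strand are counted as well. FOS-209, with all of its last 300 bases exclusive, also held no count.

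Reads of a 3′ library come from the last bases of a transcript, so exclusive bases were also counted among the last 300 exonic bases of each canonical transcript. All 300 were exclusive in JUN, JUNB, JUND, EGR1 and FOS, the 5 expressed genes. Only 5 were exclusive in FOSL2, 3 in IER2 and 0 in FOSB, FOSL1 and ATF3. IER2 shows the arrangement plainly. IER2-201 and IER2-203 end together, so that the reads of either fall on bases of both. In FOS, 10 transcripts are listed and FOS-201 alone reaches the end of the gene, with 546 exclusive bases. FOS-201 held 78, 58 and 245 counts, FOS-206 held 0, 1 and 4, and the other 8 held 0.

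**Figure D2:**
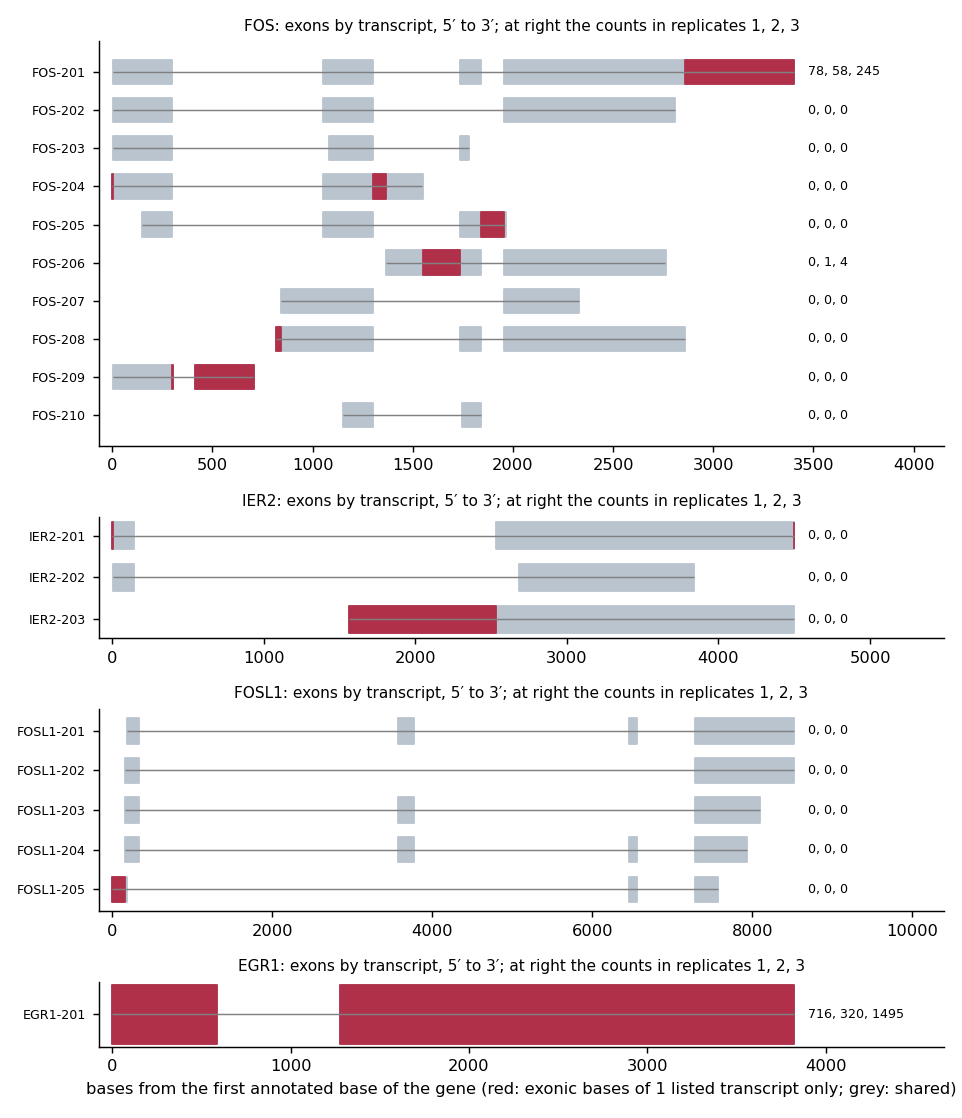
Exons of the listed transcripts of FOS, IER2, FOSL1 and EGR1, drawn 5′ to 3′ with bases from the first annotated base of the gene on the horizontal axis, exonic bases of a single listed transcript in red and shared bases in grey, and the counts of replicates 1, 2 and 3 at the right. The end of FOS-201 and all of EGR1-201 are red and hold counts, while the shared ends of IER2 and FOSL1 are grey and hold 0.

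The same held across protein-coding genes. Of the 7573 genes whose last 300 bases are all exclusive, 53.6% were expressed and 26.2% had no count, with a median of 24.7 counts. Of the 9464 genes with at most 5 exclusive bases there, 26% were expressed and 45.3% had no count, with a median of 0.333 counts. How reads on several transcripts were treated is not given in the sources used here. An mRNA at a low level and reads that were left unassigned cannot be told apart for FOSB, FOSL1, FOSL2, IER2 and ATF3, and no absence is read from these counts.

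Other immediate early genes divided in the same way. In a list of 32, 16 were expressed and 5 were high. The highest levels were 319 ± 78 TPM for RHOB, a small GTPase, 275 ± 89.2 TPM for SRF, the factor that binds the CArG box, and 257 ± 69.9 TPM for IER5, a nuclear protein related to IER2 (SD, n = 3). All 14 genes with 300 exclusive end bases were expressed, compared with 0 of the 14 with at most 5. The 10 genes with 0 counts in every replicate began with EGR2 and EGR4, relatives of EGR1, and IER3.

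**Figure D3:**
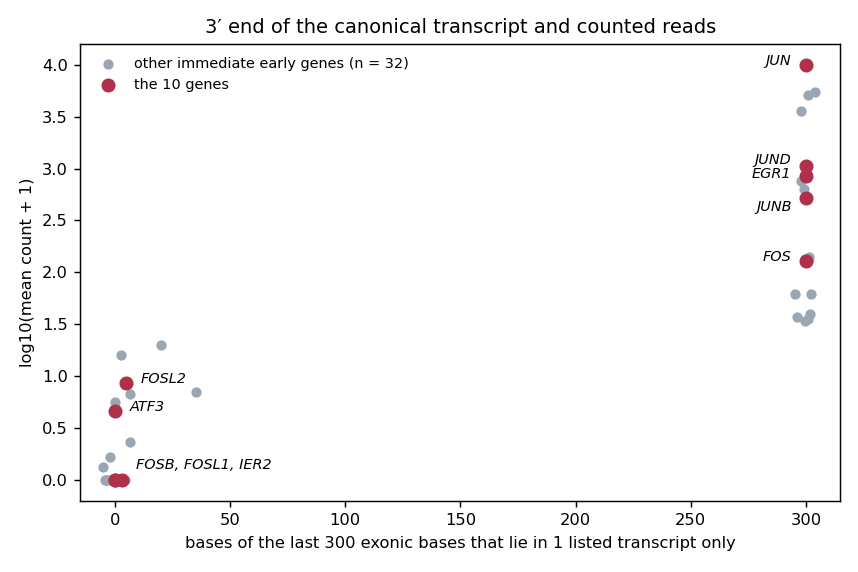
Mean count on the vertical axis, as log10(mean count + 1), against the number of exclusive bases among the last 300 bases of the canonical mRNA, for the 10 genes in red and 32 other immediate early genes in grey, which are shifted sideways by up to 5 bases at random to show overlapping points. The 5 expressed genes of the 10 lie at 300 bases, and the 5 others lie at 5 bases or fewer.

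Upstream and downstream of the 10 genes, the pathway was described by lists of known genes. Of 29 signalling genes from growth factor receptors to SRF and its partners, 20 were expressed, with SRF highest, followed by NRAS at 236 ± 55.2 TPM and the kinase MAP2K1 at 76.7 ± 17 TPM (SD, n = 3). Genes with 0 counts numbered 6, among them IGF1R, HRAS and RPS6KA1, and all 6 have at most 5 exclusive end bases. A shared end did not always go with low counts: 9 of the 17 signalling genes with at most 5 exclusive end bases were expressed, compared with 9 of the 10 with all 300. Of 20 bZIP partners and relatives of FOS and JUN, 10 were expressed, led by CEBPB (189 ± 37.9 TPM) and ATF1 (74.3 ± 11.7 TPM) (SD, n = 3). Genes with 0 counts numbered 4, among them BATF, BATF2 and NRL. NRL, a factor of the retina, has all 300 end bases exclusive.

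Of 8 proteins that bind AU-rich elements, 6 were expressed, led by KHSRP with 2860 ± 1180 TPM, HNRNPD with 249 ± 95.8 TPM and ELAVL1 with 152 ± 47 TPM (SD, n = 3). ZFP36, the best known destabiliser of this class of mRNA, had 0 counts, with none of its end bases exclusive. Of 10 textbook AP-1 targets, 3 were expressed, which were CCND1 (22.2 ± 11.1 TPM), PLAUR (6.32 ± 1.84 TPM) and VEGFA (3.77 ± 0.297 TPM). PLAUR and VEGFA have no exclusive end base, so part of their reads may be uncounted. In this list 2 of the 5 genes with at most 5 exclusive end bases were expressed, compared with 1 of the 5 with all 300. The 5 targets with 0 counts included the collagenase MMP1 and the stromelysin MMP3, both with fully exclusive ends, and the protease PLAU, with none. MMP1 and MMP3 were thus under the limit of detection although their ends belong to 1 transcript each.

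AU-rich elements in the 3′ UTR, read by these proteins, mark many immediate early mRNAs for decay. The pentamer ATTTA was present in the canonical 3′ UTR of 9 of the 10 genes, all except IER2, and in 67.5% of 19550 genes. The nonamer TTATTTATT was present in FOS and FOSL2, compared with 8.44% of all genes. FOS holds 5 pentamers in 806 bases, or 6.2 per kb, a density that 5.36% of genes reach. JUNB followed with 4 per kb, and the median was 1.62 per kb for the 10 genes and 1.5 for all genes, so the 10 as a whole lay near the background. The nonamers are printed with their context, in capitals, at chr14:75282060-75282089 for FOS and chr2:28416355-28416384 for FOSL2, both on the plus strand of hg38.
FOS: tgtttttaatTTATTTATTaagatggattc
FOSL2: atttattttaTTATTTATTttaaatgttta

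The replicates were then compared with each other, to show where their spread is larger than counting error. For this, counts were scaled to 1000000 counts outside the mitochondrial genes (nuclear CPM), each with a 95% exact Poisson interval. EGR1 had 113 (105 to 121), 54.2 (48.4 to 60.5) and 237 (225 to 249) nuclear CPM in replicates 1, 2 and 3. FOS had 12.3 (9.72 to 15.3), 9.99 (7.61 to 12.9) and 39.4 (34.7 to 44.6). Both were highest in replicate 3 and lowest in replicate 2, and the interval of replicate 3 did not overlap with either of the others. The highest replicate was 4.37 times the lowest for EGR1 and 3.94 times for FOS, and with 3 other scalings these ratios went down to 3.43 and 3.1 with the same order of replicates.

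The JUN family did not move with them. JUN had 1590, 1660 and 1600 nuclear CPM, JUNB had 85.3, 84.7 and 81.6, and JUND had 151, 182 and 177. The highest replicate was 1.04 times the lowest for JUN and JUNB and 1.2 times for JUND, and with the other scalings it was 1.23 to 1.32 times for all 3 genes. JUN had 14.1, 30.6 and 6.75 times the counts of EGR1, while EGR1 had 9.18, 5.42 and 6 times those of FOS. The relation of EGR1 to FOS was thus nearer to constant than that of JUN to either.

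**Figure D4:**
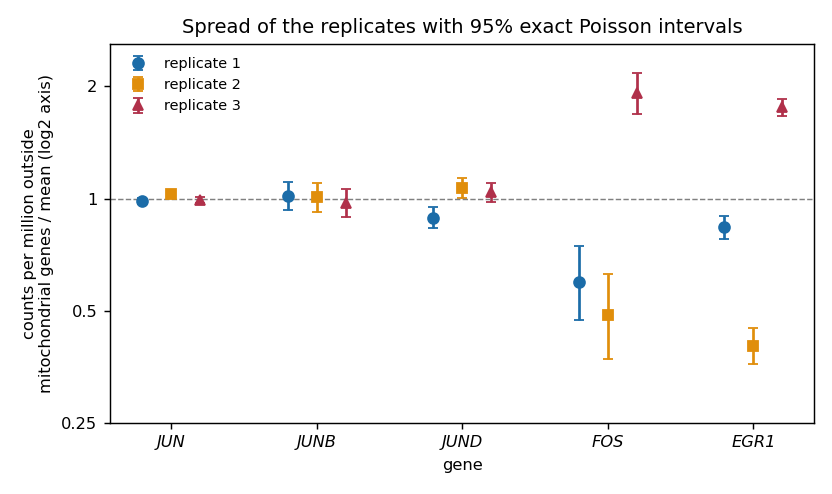
Nuclear CPM of the 5 expressed genes, divided by the mean of the 3 replicates, on a log2 axis, with 1 point per replicate and bars for the 95% exact Poisson interval. Replicate 3 stands above the other replicates for FOS and EGR1, and all points of JUN and JUNB lie near 1.

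The intervals of the highest and lowest replicate were apart for 4 of these 5 genes, all but JUNB, compared with 48.1% of 10909 genes with a mean count of at least 10. They were apart for 2 genes without replicate 1, for 3 without replicate 2 and for 3 without replicate 3, compared with 38.4%, 33.1% and 12.1% of the genes. They were apart with replicate 3 highest for FOS and EGR1, compared with 30.6% of genes. These shares are high, so it is the size of the ratio that sets the 2 genes apart in the description. Of 4865 genes with a mean count of at least 100, 7.34% had a highest replicate at least 2 times the lowest, and the median ratio was 1.28. The ratio of EGR1 was reached by 0.822% of these genes and that of FOS by 0.987%. At the other end, 3.19% of the genes had a lower ratio than JUN and 3.1% a lower one than JUNB. These shares are for nuclear CPM only. With the other scalings the ratios of JUN and JUNB were 1.23 to 1.32, so their low place depends on the scaling.

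**Figure D5:**
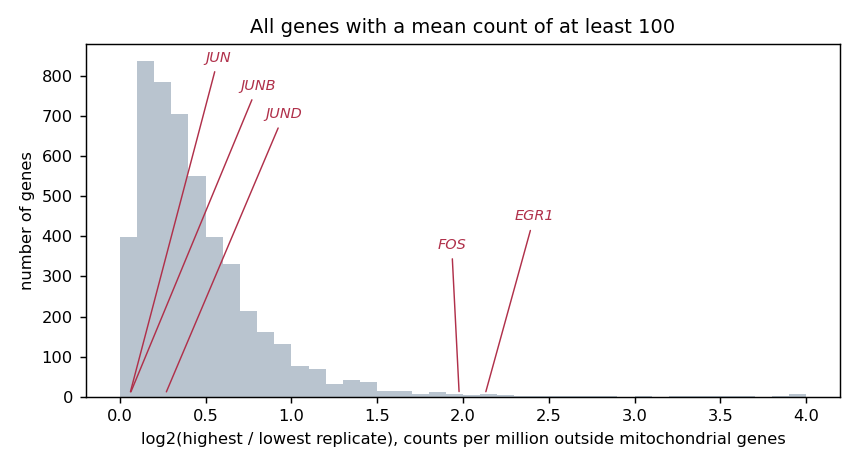
Number of genes on the vertical axis by log2 of the highest over the lowest replicate, in nuclear CPM, for the 4865 genes with a mean count of at least 100, with values above 4 drawn in the last bar. JUN and JUNB lie at the left of the distribution, JUND nearer to its middle, and FOS and EGR1 in its right tail.

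The scaling moves the level of replicate 3 as a whole. Its median gene was higher than the mean of the other replicates by 0.205 on the log2 scale, but this difference was -0.112 when counts were scaled by the library totals. Of the genes with intervals apart, 63.6% were highest and 28.2% lowest in replicate 3, compared with 30.2% and 61.3% with library totals. Relative to the median gene, FOS was higher in replicate 3 by 1.62 on the log2 scale and EGR1 by 1.3, and JUN stood at -0.23, JUNB at -0.26 and JUND at -0.12. With 3 other scalings (library totals, TMM factors and the median of ratios) EGR1 stood at 1.31 and the values of the other 4 genes were equal to these. That follows from the calculation, since a change of scaling moves a gene and the median gene almost alike. With each of these scalings the intervals of JUNB were apart as well, with replicate 3 lowest and a ratio of 1.23 to 1.32.

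The difference in FOS and in part that in EGR1 rested on replicate 3. Without it the ratio of FOS was 1.23 and its intervals overlapped, while EGR1 in replicate 1 was still 2.08 times that in replicate 2, with intervals apart. The mitochondrial share of the counts was also highest in replicate 3 (25.8%) and lowest in replicate 2 (5.7%), the order seen for EGR1 and FOS. Among the 4865 genes, 31 were highest in replicate 3 with a ratio at least that of EGR1, EGR1 itself included. Of these, 10 were mitochondrial and 18 protein-coding, classes that can overlap. Nuclear CPM leaves mitochondrial counts out of the total, so the mitochondrial share enters directly into the ratios of those 10. They are also counted in the 0.822% given for EGR1. FOS and EGR1 are also the 2 expressed genes of the 10 with a CArG box upstream, while SRF itself had 993, 893 and 769 nuclear CPM and was lowest in replicate 3. The part of either in the difference was not tested, and 3 replicates of 1 condition give no p-value for it.

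Other early genes moved less. Of the 32, 16 had a mean count of at least 10, 8 of these had intervals apart, and 3 of the 8 were highest in replicate 3. Named after their values were seen, these were KLF2 with a ratio of 1.7, CCN1 with 1.54 and the phosphatase gene DUSP1 with 1.35. With library totals CCN1 was still highest in replicate 3 with intervals apart, the intervals of KLF2 overlapped, and DUSP1 was highest in replicate 2. The largest of the 8 ratios, 2.24, was that of the nuclear receptor gene NR4A2, which was lowest in replicate 3. The median ratio of the 16 was 1.38, compared with 1.52 for all genes with a mean count of at least 10. It was 1.28 for all genes with a mean count of at least 100, so the comparison is not matched for counts. Of the bZIP partners, 8 had a mean count of at least 10, and of 6 with intervals apart 3 were highest in replicate 3. Also named after their values were seen, these were CEBPB with a ratio of 2.21, CREB1 with 1.81 and ATF1 with 1.2. CEBPB and CREB1 were highest in replicate 3 under all 4 scalings, whereas with library totals ATF1 was lowest in replicate 3 and its intervals overlapped.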

How the data were processed

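RNA-seq of 3 replicates of HEK293T cells was used. The authors deposited raw read counts, in whole numbers and not normalized, for 247541 transcripts. Their deposited TPM is the count divided by the deposited transcript length in bases and rescaled to 1000000 per library. The submitters' processing notes name Trimmomatic 0.38.0, HISAT2 2.2.1, featureCounts with version 2.2.1 and the hg38 build; strand and overlap settings are not given in the sources used here. Reads of a 3′ library do not grow with transcript length, so TPM lowers long transcripts relative to short ones. Levels without division by length are given where they change an order, and for the JUN family.

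Identifiers were matched without version to GENCODE v44, which gave 223558 transcripts of 61193 genes; the others, with 0.158% to 0.166% of counts, stayed in the totals. Counts and TPM were summed per gene. The library totals were 7019253, 6262175 and 8521624 counts. Categories follow the quartiles of the 13296 genes with a mean of at least 1 TPM (2.4, 6.55 and 24.1 TPM), a threshold that is a reading of the study. The category of a gene in a single replicate uses the quartiles of that replicate. Replicates were compared by whether the 95% exact Poisson intervals of scaled counts overlapped, for genes with a mean count of at least 10. The rule was tested only on counts simulated with counting error alone, without other spread between replicates. Intervals and limits cover counting error only, since the reads carry no molecular identifiers and may repeat 1 molecule. No test between conditions was possible, and 3 values against 3 cannot go below p = 0.1 in a 2-sided exact permutation test.

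Exclusive bases were taken from exons of the listed transcripts on the same strand. Motifs were searched in the 500 bases upstream of 20031 canonical TSSs and in 3′ UTRs, both from GENCODE v44 and the hg38 sequence. All 10 genes were named, with the transcripts that held a count and, from each list, the 3 genes of highest mean TPM and up to 3 with 0 counts, apart from 1 gene and 1 sequence that are not reported here. The genes and lists were chosen with earlier results of these data known. Alternatives were other thresholds, scalings, confidence levels and units of summation, and each replicate left out in turn. Computation was in Python 3.11.15 with scipy 1.17.1, numpy 2.4.6, pandas 2.3.3 and matplotlib 3.10.9 and, for TMM factors alone, edgeR 4.0.16 in R 4.3.3.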

Additional observations from a re-analysis of the deposited data

How the results depend on the processing

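The number of expressed genes among the 10 was 5 to 7 under all alternatives tried. The number in the high category was 4, but 2 (JUN and JUND) with a mean of at least 10 TPM as the threshold and 5 with a mean above 0 TPM, since the threshold moves the quartile itself. The number with intervals apart was 4, and from 2 to 3 when 1 replicate was left out in turn (12.1% to 38.4% of all genes), 3 with a 99% interval (33.6%), 5 with the other scalings (46.4% to 47.3%) and 5 without the filter on low counts (22%). JUN, with a ratio of 1.04, lost its call with the 99% interval and without replicate 1 or 2, JUND without replicate 1 (1.03), and FOS without replicate 3 (1.23). JUNB, at rank 3, and EGR1, at rank 4, changed places without division by length and without replicate 2. With mitochondrial genes left out the mean levels of the 5 expressed genes rose, to 17.2 TPM for FOS, 74.9 for EGR1, 81.5 for JUNB, 156 for JUND and 880 for JUN, and from the canonical transcript alone FOSL2 had 0.0627 TPM. The difference of JUND between replicate 3 and the mean of the others was 0.09 on the log2 scale, but from -0.13 to -0.23 with the other scalings. No paired analysis was possible because there is 1 condition with 3 replicates. FOSL2 and ATF3 had at most 9 counts in a library and 3 genes had 0, and the parts of depth and of reads left unassigned at shared ends cannot be told apart.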
